A study of Mus musculus with 2 samples.

Results

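Vgll3, a vestigial-like cofactor gene, was followed together with 9 genes of the same transcription machinery in mouse embryo fibroblasts (MEFs), namely Vgll4, the TEAD genes Tead1, Tead2, Tead3 and Tead4, Yap1, Wwtr1 (which encodes TAZ), Lats2 and Amotl2. All probe sets annotated to exactly 1 of these 10 gene symbols were taken, which gave 22 probe sets of 34945 that carry a single symbol, and 10 genes of 18193. Vgll3 was selected on its own signals from these arrays, so its difference between the arrays is given as a description. The knock out group was made of MEFs from Ebp1-/- embryos, homozygous for a retroviral gene trap in intron 2 of Pa2g4, the gene of ErbB3 binding protein-1 (Ebp1). The other group was made of MEFs from wild type embryos. All cells came from embryos of day 12.5, grew in 10% serum without further treatment, and gave RNA at passage 2. The mice were kept on a mixed background of C57BL/6 and the strain of the trapped ES cells, and the number of embryos behind each culture is not stated in the sources. RNA of each genotype was hybridized to 1 array, so no value has an error, a p-value or a replicate check, and every ratio compares those 2 arrays.

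TEAD proteins bind DNA but need a partner to activate transcription. YAP and TAZ are their main partners, and the Hippo pathway, a chain of the MST and LATS kinases, keeps YAP and TAZ in the cytoplasm when it is active. Vestigial-like proteins bind the same surface of TEAD through a short Tondu motif, and Vgll4 is known as a competitor of YAP there. Vgll3 is known to restrain adipocyte differentiation in mouse preadipocytes.

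The letters of the Vgll3 promoter are shown because the results turn on this gene. Vgll3 lies on chromosome 16 of GRCm38.p6 (65815189 to 65866368, plus strand, protein coding, 51.2 kb). The window of 300 bases, 250 before the annotated start and 50 after it, covers chr16:65814939-65815238 and is taken from RefSeq for that build. The core letters that TEAD proteins recognise, GGAATG, were searched on both strands, so that CATTCC also counts as a match, and matches are in capitals.

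Vgll3 promoter: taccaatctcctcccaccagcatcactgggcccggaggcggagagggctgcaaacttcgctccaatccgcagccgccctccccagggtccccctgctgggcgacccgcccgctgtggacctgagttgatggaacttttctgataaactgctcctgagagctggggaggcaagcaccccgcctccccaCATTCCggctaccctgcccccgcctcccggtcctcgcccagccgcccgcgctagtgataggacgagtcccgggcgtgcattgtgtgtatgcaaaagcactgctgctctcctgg

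A RefSeq window was matched for 8 of the 10 genes, all but Tead1 and Tead4. In 7 of these 8 genes at least 1 window held a match, and Tead2 was the one without. Of 17491 protein coding genes with a window, 15.5% held a match, and of 4122 genes with a window and a signal of at least 500 on 1 array 14.1% did. A match describes the letters only and is not a shown binding site. The stretches of 30 bases around a match are set side by side for the genes with a single matched stretch, read 5′ to 3′ along each gene. The bases next to the core can be compared directly only among stretches that show the core in the same letters, CATTCC or GGAATG.

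Vgll3, chr16:65815114-65815143, plus strand: cccgcctccccaCATTCCggctaccctgcc
Amotl2, chr9:102717727-102717756, plus strand: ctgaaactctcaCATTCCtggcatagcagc
Vgll4, chr6:114969268-114969297, minus strand: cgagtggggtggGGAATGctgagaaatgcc
Yap1, chr9:8004720-8004749, minus strand: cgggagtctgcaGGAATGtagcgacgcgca
Wwtr1, chr3:57576029-57576058, minus strand: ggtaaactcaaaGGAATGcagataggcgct
Lats2, chr14:57746102-57746131, minus strand: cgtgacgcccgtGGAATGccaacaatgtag

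In Vgll3 and Amotl2 the match was on the strand opposite to the gene and began at positions -63 and -65 from the start. In Vgll4, Yap1, Wwtr1 and Lats2 it was on the strand of the gene.

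Pa2g4 was checked first. Of its 5 probe sets 1 was low on both arrays, and the 4 others had lower signals in knock out MEFs, the brightest with 1178 in knock out and 1835 in wild type MEFs (log2 ratio -0.64, as are all log2 ratios here of knock out over wild type). This ratio lies within the range of the middle 95% of all genes with a signal of at least 500 on 1 array (-0.75 to 0.61), and the 4 probe sets ran from -0.90 to -0.33, so a signal of Pa2g4 was still present in knock out MEFs. The study itself reported no Ebp1 transcript by RT-PCR and no Ebp1 protein by Western blot in knock out MEFs. Where the Pa2g4 probe sets lie relative to the trap is not stated in the sources, and why the array signal remained was not tested. Signals are linear intensity units made with MAS5, with a median of 71.6 on the knock out and 66.5 on the wild type array. A signal under 100 was treated as low, which held for 57.1% of probe sets on the knock out and 57.9% on the wild type array. All 10 fibroblast markers, among them Vim, Col1a1 and Prrx1, had signals of at least 1039.9 in knock out and 1069 in wild type MEFs. Their log2 ratios ran from -0.67 to 0.39, with 5 above 0 and 5 below. The lowest were those of Pdgfrb (1952 in knock out and 3098 in wild type MEFs) and Thy1 (2784 in knock out and 4173 in wild type MEFs). Of 5 endothelial markers 1, Kdr, was at least 100 on both arrays (156 in knock out and 101 in wild type MEFs), with Cdh5 and Pecam1 low. Of 3 blood cell markers it was Lyz2 (235 in knock out and 357 in wild type MEFs), with Ptprc low. Of 5 neural markers Nes (470.5 in knock out and 344 in wild type MEFs) and Tubb3 (122 in knock out and 170 in wild type MEFs) were, with Sox2 and Pax6 low. Another Nes probe set pointed the other way, with 208 in knock out and 247 in wild type MEFs, and the remaining one was low on both arrays. Of 5 muscle markers 1, Des, was at least 100 on either array. On its brightest probe set it had 100.3 in knock out and 94.0 in wild type MEFs. The other Des probe set pointed the other way, with 55.2 in knock out and 127 in wild type MEFs. Myod1 was low on both arrays. The summed signals of 6 epithelial markers were 1880 in knock out and 472 in wild type MEFs. Epcam was at 1350.5 and 174 on 1 probe set and low on both arrays, at 4.07 and 5.81, on the other. The first of these gives most of the knock out sum and carries the suffix _x_at, which marks probes that can match other transcripts. Krt19 (197 in knock out and 88.0 in wild type MEFs) and Cldn4 (121 in knock out and 36.2 in wild type MEFs) were also above 100 in knock out MEFs only, so that 3 of 6 were at least 100 in knock out and 1 of 6 in wild type MEFs. Krt8, Krt18 and Cdh1 were low on both arrays, Cdh1 at 19.5 in knock out and 11.5 in wild type MEFs. The part of these other cell types in the results was not tested.

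Vgll3 was bright in wild type MEFs and near the bottom of the scale in knock out MEFs, and all 3 of its probe sets showed this. The signals were 14.3 in knock out and 2686 in wild type MEFs on 1453593_at, the probe set with the highest mean log2 signal. They were 17.6 in knock out and 2118 in wild type MEFs on 1455299_at. They were 2.37 in knock out and 3354 in wild type MEFs on 1430596_s_at. All 3 signals of the knock out array were thus low, and all 3 of the wild type array were at least 2118. With low signals set to 100, Vgll3 was at least 26.9-fold lower in knock out MEFs on the first of these probe sets, at least 21.2-fold lower on the second and at least 33.5-fold lower on the third. Ordered by this bound, the 3 probe sets of Vgll3 took ranks 1, 2 and 3 of 45037 probe sets, and rank 4 was a probe set of Chmp2b at 9.68. In a culture, fewer cells that express a gene and less RNA per cell cannot be told apart.

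**Figure D1:**
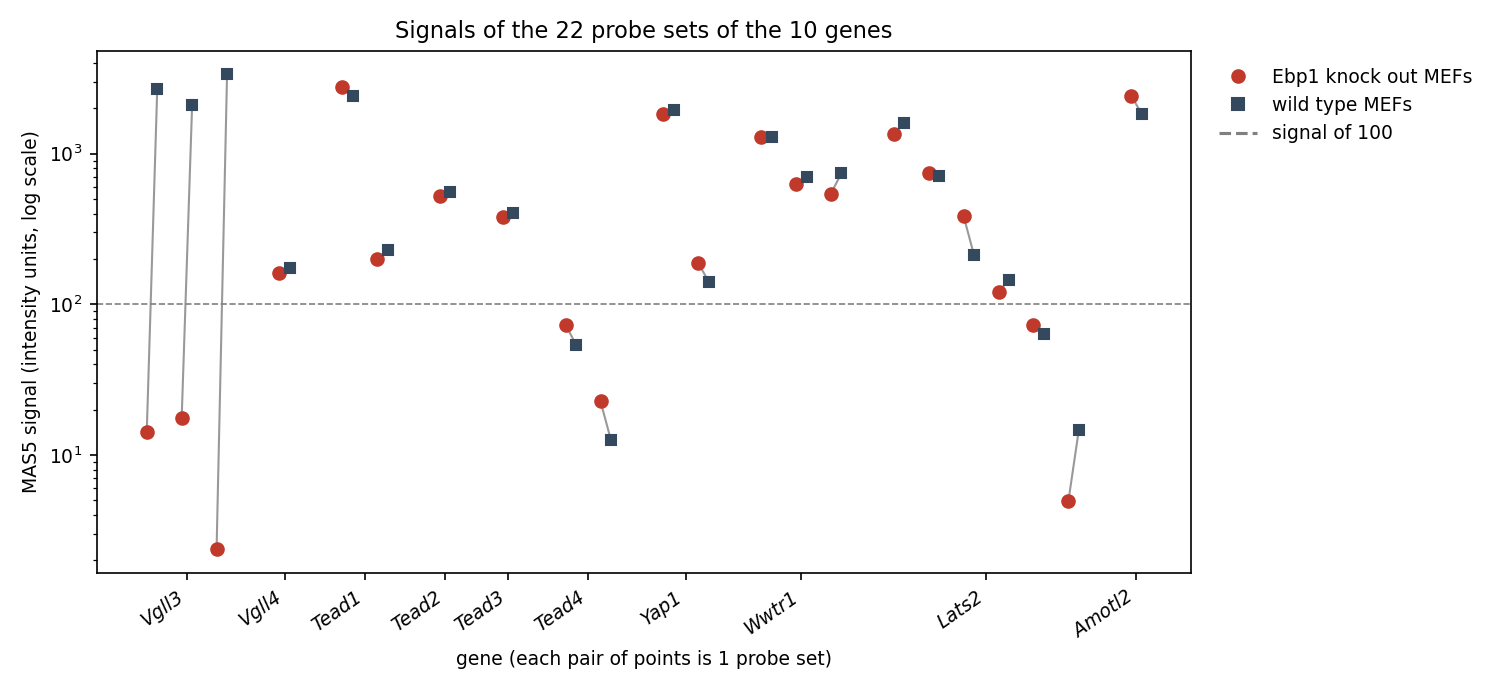
Signals (vertical axis, intensity units, log scale) of the 22 probe sets of the 10 genes, 1 pair of points for each probe set, with knock out MEFs as circles and wild type MEFs as squares. The 3 pairs of Vgll3 run from at most 17.6 in knock out to at least 2118 in wild type MEFs. The pairs of the other 9 genes lie within 2-fold wherever both signals are above 100. The widest of these is a Lats2 probe set with 385 in knock out and 211 in wild type MEFs.

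Loss of signal of this kind was rare on the arrays. Of 4759 genes with at least 500 in wild type MEFs on their brightest probe set, 5 (0.105%) were under 100 in knock out MEFs, namely Vgll3, Chmp2b, Rtp4, Depp1 and Ackr2. Counted over probe sets of a single gene, 8 fell in this class, of which 3 belong to Vgll3 and 2 to Chmp2b. No other gene had more than 1 such probe set. In the opposite direction, 4 probe sets of 3 genes had at least 500 in knock out MEFs and under 100 in wild type MEFs.

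**Figure D2:**
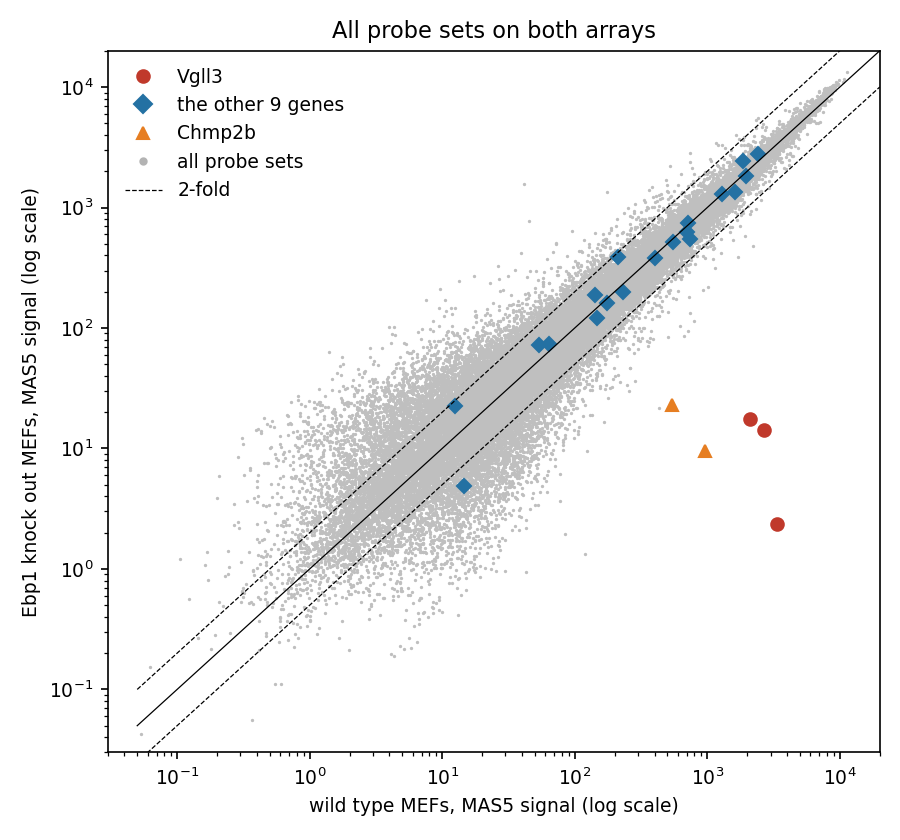
Scatter of all 45037 probe sets on logarithmic axes, with the knock out signal running up the page and the wild type signal across it, and dashed lines at a 2-fold ratio. The 3 probe sets of Vgll3 and the 2 of Chmp2b stand apart at the lower right, and the diamonds of the other 9 genes follow the diagonal.

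The genes with signals most like those of Vgll3 were found by the distance over log2 of both signals, over 2 arrays, with low signals set to 100. The nearest were Sfrp1, a secreted Wnt antagonist, at a distance of 1.81, Cpxm2, a carboxypeptidase-like gene, at 1.90, the interferon-stimulated gene Rtp4 at 1.91, Depp1, a FOXO target gene in human cells, at 2.01 and Igfbp3, which encodes a carrier of IGF-1, at 2.06. All 5 were thus more than 1 log2 unit away. Sfrp1 had a signal of 218 in knock out and 1008 in wild type MEFs. Cpxm2 had 132 in knock out and 739 in wild type MEFs, and 39.0 and 124 on its other probe set. Igfbp3 had 387 in knock out and 1694 in wild type MEFs, and its other probe set, at 316 in knock out and 1137 in wild type MEFs, also pointed down. Of the 5 probe sets of Sfrp1, 4 had log2 ratios between -2.21 and -1.26, and the other was low on both arrays. Rtp4 had 94.0 and 713 on that probe set, and on its other one it was low on both arrays, at 22.5 in knock out and 14.6 in wild type MEFs. Depp1 also had a second probe set that was low on both arrays. Such a probe set carries no information on a loss, so Rtp4 and Depp1 were each read on 1 probe set only.

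The position of Vgll3 on the chromosome was examined next, because Chmp2b is its neighbour. Chmp2b, whose product belongs to the membrane-cutting ESCRT-III machinery, lies 252 kb before Vgll3 on chromosome 16. Its signals were 9.46 in knock out and 968 in wild type MEFs on 1 probe set and 23.0 in knock out and 540.4 in wild type MEFs on the other, at least 9.68-fold and at least 5.40-fold lower. The lncRNA gene Gm36457, next to Chmp2b, was low on both arrays, at 4.98 in knock out and 33.1 in wild type MEFs. From the start of Chmp2b to the end of Vgll3, a stretch of 327 kb with 7 annotated genes of which 2 are protein coding, all 6 probe sets were under 100 in knock out MEFs and 5 of them were at least 500 in wild type MEFs.

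On either side of this stretch the genes with a probe set did not show such a loss. Before it, Htr1f, a serotonin receptor gene 709 kb from Vgll3, was low on both arrays (5.75 and 2.64 in knock out, 12.1 and 11.3 in wild type MEFs), so its probe sets carry no information on a loss. Cggbp1, which encodes a protein that binds CGG repeats, is 956 kb away and was 1880 in knock out and 2139 in wild type MEFs (log2 ratio -0.19), with 503 and 359 (0.48) on its other probe set. Zfp654, 963 kb away, was low on both arrays. After Vgll3 the nearest measured gene was Gbe1, the glycogen branching enzyme gene, 4448 kb away and low on both arrays at 80.8 in knock out and 96.9 in wild type MEFs. Robo1, an axon guidance receptor gene 6161 kb away, was 425 in knock out and 327 in wild type MEFs (0.38). The remaining neighbours, 4930500H12Rik, Robo2 and Lipi, were low on both arrays. The nearest genes that were measured above 100 on both arrays were therefore Cggbp1 on one side and Robo1 on the other. The protein coding genes Pou1f1, Gm52259, Cadm2 and Speer2 of this region had no probe set with a single symbol and were not analysed here.

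**Figure D3:**
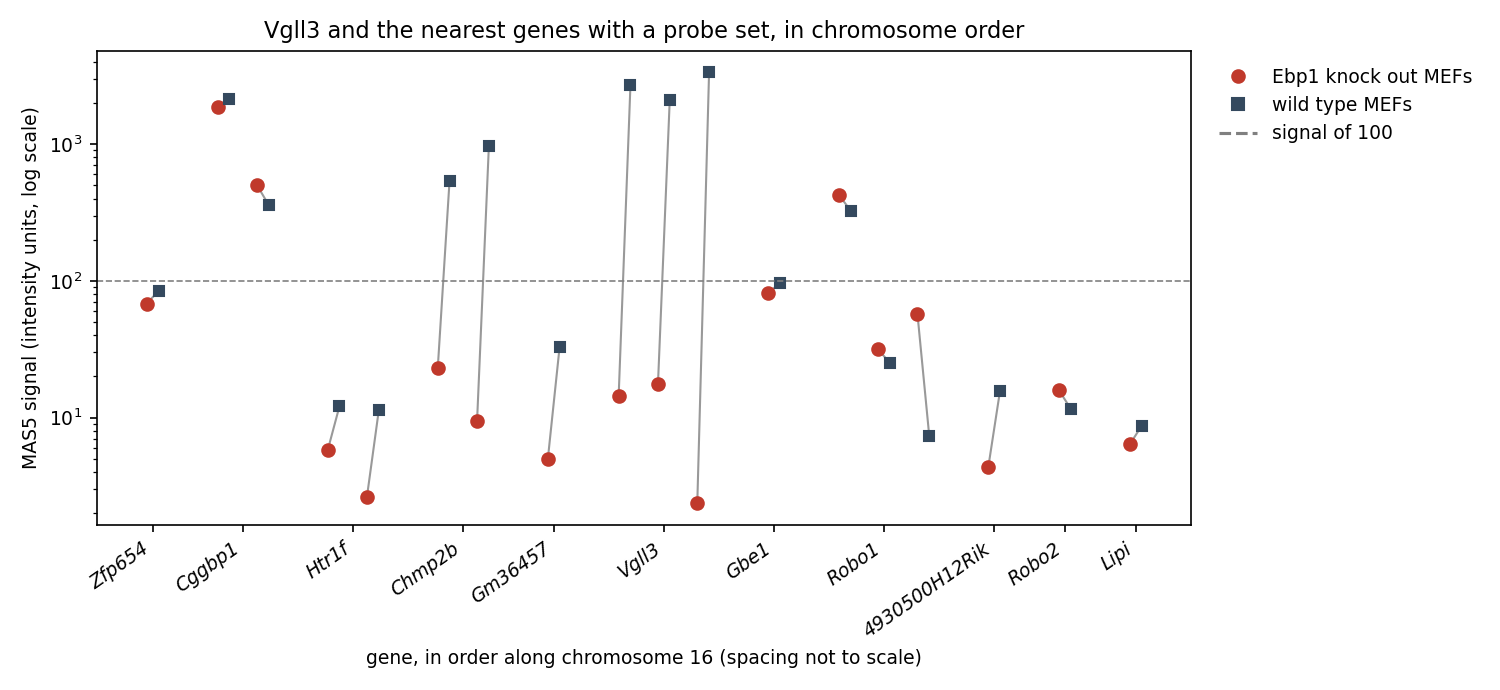
Signals (vertical axis, intensity units, log scale) of all probe sets of Vgll3 and of the 5 nearest measured genes on each side, in their order on chromosome 16 and not to scale, with knock out MEFs as circles and wild type MEFs as squares. The gap between the arrays is confined, among the probe sets drawn that are above 100 on either array, to Chmp2b and Vgll3, while Cggbp1 and Robo1 have pairs close together.

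Among the 5 genes with loss of signal, Rtp4 is also on chromosome 16, but 42.2 Mb from Vgll3 with 228 measured genes between them. Vgll3 and Chmp2b have 1 measured gene between them, Gm36457. Pa2g4, the trapped gene, is on chromosome 10. Genotype and any other difference between the 2 cultures cannot be told apart with 1 array each, and the cause of the shared loss was not tested. An array signal near 0 does not tell less transcript from a sequence under the probes that differs or is missing in the genome of these cells, and no DNA was measured in the files used here.

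Of the other 9 genes, the 6 that reached 500 on at least 1 array showed no such change. Vgll4, Tead3 and Tead4 stayed below 500 on both arrays and could not fall in the class of lost signals. Of the 10 genes, 7 reached 500 on at least 1 array, and 1 of these, Vgll3, was over 2-fold apart. In all, 1.81% of the 5014 genes that reached 500 were over 2-fold apart and 1.06% were over 2-fold lower. The 6 others that reached 500 had log2 ratios from -0.26 to 0.39 with a median of -0.04, against a median of -0.05 for all 5014 genes, of which the middle 95% lay between -0.75 and 0.61.

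No other vestigial-like gene was bright enough in wild type MEFs to show a loss like that of Vgll3. Vgll4 had a signal of 161 in knock out and 175 in wild type MEFs on its single probe set (log2 ratio -0.12). Both arrays were above the limit of 100 and below 500, so the gene could not fall in the class of lost signals. Vgll1 and Vgll2 were low on both arrays, at 32.3 and 66.3 in knock out MEFs and 14.0 and 53.2 in wild type MEFs. Their probe sets therefore carry no information on a loss.

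Of the TEAD factors, Tead1 had signals of 2789 in knock out and 2413 in wild type MEFs on its brightest probe set (log2 ratio 0.21, below 0 after scaling to spike-ins) and 199 and 231 (-0.21) on its other one. Its probe sets thus lay on both sides of 0 within 2-fold. Tead2, a TEAD gene of early embryos, was 522 in knock out and 553 in wild type MEFs (-0.08). Tead3 was 381 in knock out and 402 in wild type MEFs (-0.08). Both genes have 1 probe set, and their arrays differed by less than 10% of the signal. Tead4, known for its part in the trophectoderm of the early mouse embryo, was low on both arrays on both of its probe sets, at 72.8 in knock out and 53.9 in wild type MEFs on the brighter one and 22.7 and 12.5 on the other. Its log2 ratios carry no direction for this reason.

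The coactivator genes were present on both arrays. Yap1 had signals of 1822 in knock out and 1956 in wild type MEFs on its brightest probe set (log2 ratio -0.10) and 188 in knock out and 141 in wild type MEFs on its other one (0.41), so its probe sets differed in sign. Wwtr1 was 1287 in knock out and 1288 in wild type MEFs on the brightest of 3 probe sets (log2 ratio 0.00). The others gave 632 in knock out and 705 in wild type MEFs (-0.16) and 543 in knock out and 743 in wild type MEFs (-0.45). All 3 ratios of Wwtr1 were at or below 0 and none reached 2-fold.

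Lats2 and Amotl2 encode inhibitors of YAP and TAZ and are themselves induced by them, which makes them negative feedback genes. Lats2, a kinase that phosphorylates YAP, was 1347 in knock out and 1609 in wild type MEFs on its brightest probe set (log2 ratio -0.26) and 748 in knock out and 709 in wild type MEFs on the next (0.08). Its probe set 1419678_at gave 385 in knock out and 211 in wild type MEFs (0.87), the largest ratio of a probe set of these 9 genes with both signals above 100, and still within 2-fold. Of its other 3 probe sets 1 gave 121 in knock out and 146 in wild type MEFs (-0.28) and 2 were low on both arrays. The brightest Lats2 probe set, the one at -0.26, carries the suffix _x_at, which marks probes that can match other transcripts. Without such probe sets Lats2 is read at 0.08. Amotl2, an angiomotin scaffold that binds YAP, was 2423 in knock out and 1846 in wild type MEFs on its only probe set (0.39, or 0.00 after scaling to spike-ins).

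Around the limit of 100, the dimmest probe set of the 10 genes still above it on both arrays was a Lats2 probe set with 121 in knock out and 146 in wild type MEFs. The brightest one below it on both arrays was another Lats2 probe set with 73.1 in knock out and 63.8 in wild type MEFs. Besides the 3 probe sets of Vgll3, no probe set of these genes was low on 1 array only.

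The rest of the Hippo pathway was read from 20 genes of its kinases, scaffolds and upstream regulators, of which 19 were measured and 14 reached 500. None of the 14 was over 2-fold apart under the deposited scaling, against 1.81% of all genes that reached 500. Of the 14, 8 (57.1%) had a log2 ratio above 0 and 6 below, against 42.2% above 0 of all genes. Their median was 0.04 against -0.05 for all genes, -0.06 against -0.16 after median centring and -0.35 against -0.46 after scaling to spike-ins, so its sign depends on the scaling. Nf2, which encodes the tumor suppressor merlin that activates the LATS kinases, was nearest to the threshold, at 313 in knock out and 615 in wild type MEFs (-0.98). After median centring and after scaling to spike-ins it was over 2-fold lower, so that the count became 1 of 14. Its next brightest probe set pointed the other way, with 247 in knock out and 202 in wild type MEFs (0.29), and its 2 others were low on both arrays. Frmd6, a FERM domain scaffold, was 1704 in knock out and 1515 in wild type MEFs (0.17). The protocadherin gene Fat4 was 1293 in knock out and 1753 in wild type MEFs (-0.44) on its brightest probe set. Its other probe set gave 1203 in knock out and 1324 in wild type MEFs (-0.14). Frmd6 and Fat4 have the highest mean log2 signals of the list. Lats1, the paralogue of Lats2, was 977 in knock out and 840.0 in wild type MEFs (0.22).

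Dchs1, the ligand protocadherin of Fat4, was 80.2 in knock out and 237 in wild type MEFs and did not reach 500 on either array. Mob1a, which encodes an activator of the LATS kinases, was 1411 in knock out and 1453 in wild type MEFs on its brightest probe set (-0.04). Its other probe sets were higher in knock out MEFs, with 1102 in knock out and 769 in wild type MEFs (0.52) on the next brightest and 295 in knock out and 45.9 in wild type MEFs on the dimmest. Dchs1 and Mob1a were named after their values were seen.

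Target genes that YAP, TAZ and TEAD induce, mostly known from human cells, were listed without Lats2 and Amotl2. Of 20 such genes 16 reached 500, and 1 of them, Igfbp3, was over 2-fold apart and lower (387 in knock out and 1694 in wild type MEFs, log2 ratio -2.13), where 1.81% of all genes were over 2-fold apart and 1.06% over 2-fold lower. Igfbp3 is also 1 of the 5 genes with signals most like those of Vgll3. Of the 16, 12 had a log2 ratio above 0 and 4 below, which is 75.0% above 0 against 42.2% of all 5014 genes that reached 500. The median was 0.20, against -0.05 for all genes, and it was 0.10 against -0.16 after median centring and -0.22 against -0.46 after scaling to spike-ins, so the sign of the list depends on the scaling while its place above all genes was kept under these 2 scalings. No test of this difference was made.

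Ccn2, the matricellular growth factor gene that is the usual readout of YAP, had signals of 9166 in knock out and 6923 in wild type MEFs on its only probe set (log2 ratio 0.40). Ccn1, of the same family, was 6792 in knock out and 6023 in wild type MEFs on its brightest probe set (0.17), and over 4 probe sets its log2 ratios lay between -0.15 and 0.17. Ankrd1, a nuclear ankyrin repeat gene, was 1091 in knock out and 748 in wild type MEFs (0.54) and 813 and 427 (0.93) on its other probe set. The receptor tyrosine kinase gene Axl was 3144 in knock out and 2111 in wild type MEFs (0.57). All 4 were within 2-fold. Scaling to spike-ins moved each log2 ratio by -0.39, which is nearly the whole ratio of Ccn2 and put Ccn1 below 0. Ankrd1 and Axl have the highest log2 ratios of the target genes that reached 500. Besides Igfbp3, F3 was also lower, at 963 in knock out and 1305.5 in wild type MEFs (-0.44). Rbms3 was 1992 in knock out and 2524 in wild type MEFs on its brightest probe set (-0.34), with its other probe sets on both sides of 0. Ankrd1, Axl, F3 and Rbms3 were named after their values were seen.

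**Figure D4:**
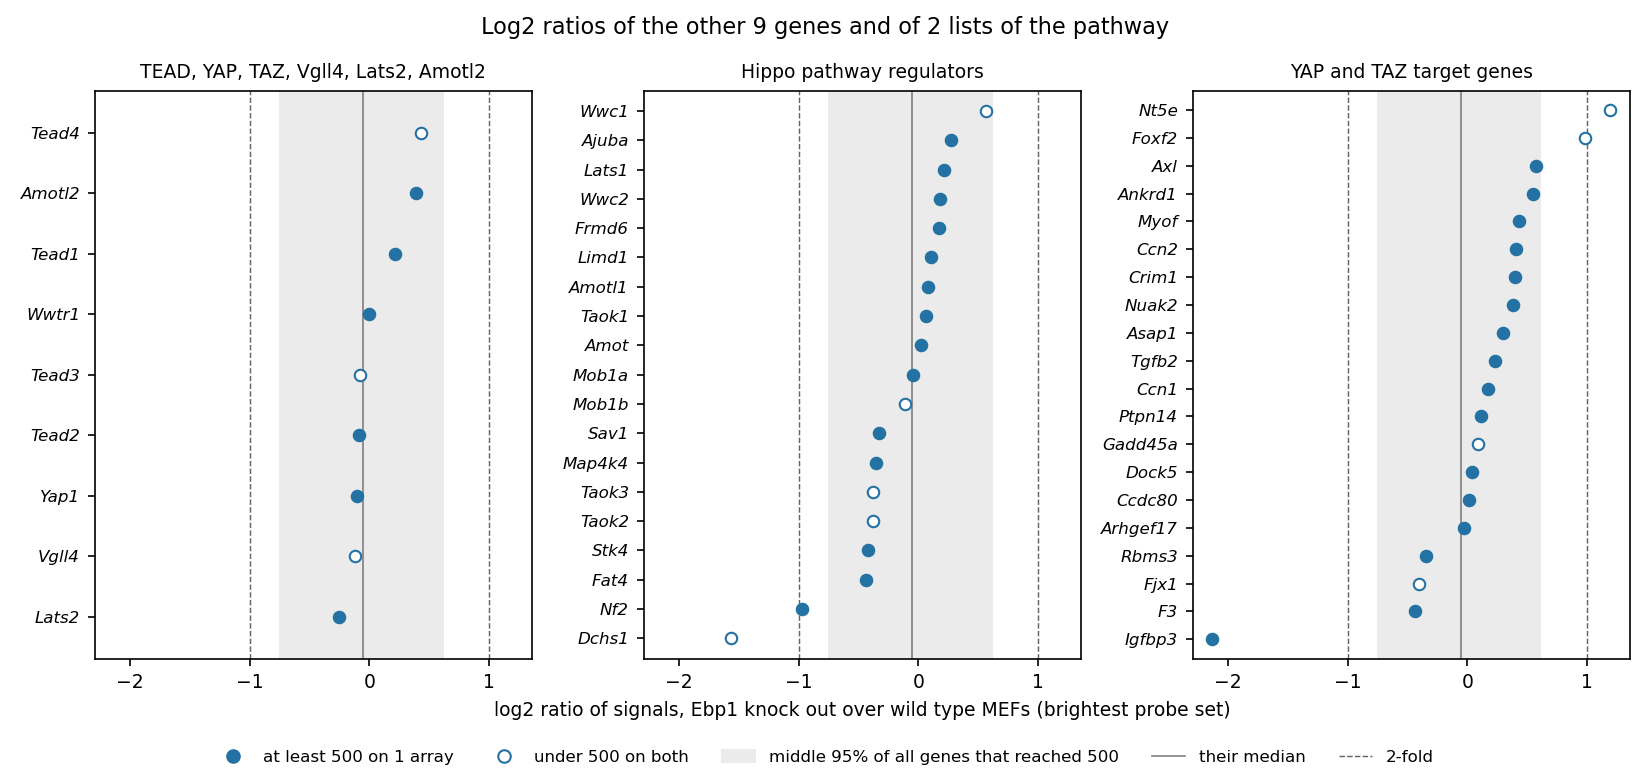
Log2 ratios (horizontal axis, knock out over wild type) of the other 9 genes, of 19 Hippo pathway regulators and of 20 YAP and TAZ target genes, 1 row for each gene on its brightest probe set, with open circles for genes under 500 on both arrays. The grey band is the middle 95% of all genes that reached 500 (-0.75 to 0.61), and Nf2 and Igfbp3 are the filled circles outside it, under the deposited scaling.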

How the data were processed

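The data are 1 array each of Ebp1 knock out and wild type MEF RNA (total RNA, biotin-labelled cRNA). The authors deposited 1 linear signal intensity for each probe set and array, made with MAS5 from perfect-match and mismatch probes with each array brought to the same target intensity. The identifiers are those of a mouse array, although the methods name another type. Control probe sets (64) were left out, which left 45037. Of these 34945 had 1 gene symbol, 932 several and 9160 were unnamed here, and 34741 of the 34945 were found in the annotation of GRCm38.p6 by their Entrez identifier.

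Each gene was read on its brightest probe set (highest mean log2 signal). Log2 ratios are of knock out over wild type. Signals under 100 were low, and a fold against one is a bound with it set to 100. A gene was counted when it reached 500 on 1 array and was over 2-fold apart, the minimum and threshold of the study's methods without their p-value. No test was possible with 1 array per genotype. The genes and both lists were chosen with earlier results of these data known. Named were all probe sets of the 10 genes, Vgll1, Vgll2 and Pa2g4, list genes over 2-fold apart, the 2 of each list with the highest mean log2 signal, the 5 genes most like Vgll3 and the 5 nearest measured genes on each side. Any other gene was chosen after its values were seen, namely Lats1, Nf2, Ackr2, Nt5e and the marker genes, besides those named so in the text.

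The alternatives were median centring, quantile normalization, scaling to 9 hybridization spike-ins (knock out over wild type, 1.31), the mean of all probe sets, leaving out those that end in _x_at or _s_at, other limits for low signals, a minimum of 100, a threshold of 1.5-fold and 50 added to each signal. The steps were tested on simulated data. Python 3.11.15, numpy 2.4.6, pandas 2.3.3 and matplotlib 3.10.9 were used. Promoter windows came from RefSeq.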

Additional observations from a re-analysis of the deposited data

How the results depend on the processing

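The bound for Vgll3 was 26.7 to 27.2 under 3 scalings and both other choices of probe set. Median centring and scaling to spike-ins moved only the knock out signal, which stayed under 100 and was set to 100. These 2 scalings could therefore not change the bound, and leaving out _x_at and _s_at kept the same probe set. The bound was 53.7 with low signals set to 50 and 13.4 with 200, which follows from the limit itself. Vgll3 was the 1 gene of the 10 over 2-fold apart under all 7 alternatives for that count. Of the Hippo regulators, 1 instead of 0 was over 2-fold apart after median centring, scaling to spike-ins and at a threshold of 1.5-fold (Nf2, lower in each), 1 with the mean of all probe sets (Mob1a, higher) and 1 with a minimum of 100 (Dchs1, lower). Of the YAP target genes it was 2 with a minimum of 100 (Nt5e, higher, beside Igfbp3) and 1 under the other 6. The log2 ratios of the 10 genes kept their sign in 55 of 60 alternative values, but part of these could not change sign. Adding 50 to both signals cannot turn a ratio, and for genes with 1 probe set the mean of all probe sets is the same value. Tead4, whose ratios carry no direction, is also among the 60. The count is therefore not a measure of how stable the signs are. The 5 that changed sign were Tead1 (2), Yap1, Wwtr1 and Lats2, all within 2-fold. Scaling to spike-ins moved the median log2 ratio of all probe sets by -0.39 and median centring by -0.11. With 1 array per genotype no ratio has an error, and for genes under 100 on both arrays no ratio can be read. No paired analysis was possible because each genotype has a single array.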
